A study of Mus musculus with 23 samples.

Results

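The 45 genes described here are the microglia, complement and cytokine genes of a hippocampal RNA-seq table. They were taken by gene symbol and not by a filter on measured values, but the list was chosen with earlier results of these data known. All 45 were found among the 19733 genes of the table. They comprise 10 genes of microglial identity, 3 transcription factors, 3 genes of growth factor signaling, 7 of ITAM signaling and phagocytosis, 8 complement genes, 4 lysosomal genes, 5 of pattern recognition and 5 cytokines.

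RNA was sequenced from the hippocampus of 23 male C57BL/6J mice of wild-type genotype, 1 library per mouse, acquired at 6 weeks of age and then kept on liquid diets for 16 weeks. The 9 Ctrl mice received a control liquid diet, the 7 EtOH mice an alcohol liquid diet, and the 7 EtOH-UA mice the alcohol diet with urolithin A at 200 mg/kg/day by gavage. Urolithin A is a compound that gut bacteria make from dietary ellagic acid, and the Ctrl and EtOH mice were gavaged with its vehicle. The design asks whether long-term alcohol intake changes these genes and whether urolithin A changes them in alcohol-fed mice.

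Microglia are the resident macrophages of the brain. They depend on signals through the receptor Csf1r, keep their identity through factors such as Spi1 and Sall1, and survey the tissue with purinergic and chemokine receptors such as P2ry12 and Cx3cr1. They are the main source of the complement protein C1q in the brain, which tags synapses and debris that are then recognised by complement and ITAM-coupled receptors and broken down in lysosomes. Signals through pattern recognition receptors such as Tlr4 and Tlr7 raise the cytokines Il1b and Tnf, and alcohol exposure is a setting in which this response is commonly examined.

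Values are FPKM, in which the fragments of a gene are divided by transcript length and library size. The deposited table holds no counts. The steps between the low values of 66 genes put 1 FPKM at about 16.7 fragments per kilobase and library, so a gene of 1 kb at 0.1 FPKM rests on only a few fragments. The summed FPKM of the libraries ran from 327896 to 404609, and genes with a value above 0 from 16996 to 17413. Libraries also differed in how expression related to transcript length. A length slope was computed for each library, the slope of log2 deviations on log2 transcript length over 12565 genes, in which a low value means that short transcripts ran high. It lay between -0.09 and 0.08 in Ctrl mice, between -0.11 and 0.09 in EtOH mice and between -0.27 and 0.06 among EtOH-UA mice. The 2 lowest slopes, -0.27 and -0.16, belonged to 2 EtOH-UA libraries, which also had the highest summed FPKM, 404609 and 379518. Values without these 2 libraries, or with the slope as a covariate, are given below where they moved a result.

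Levels ran from 50.3 down to 0.0226 FPKM. The most abundant of the 45 genes was Ctss, the lysosomal protease cathepsin S, at a mean of 50.3 FPKM over all mice, above 91.0% of the 15985 genes tested. C1qa followed at 29.8 FPKM, C1qc at 28.5 FPKM and C1qb at 25.4 FPKM, the 3 subunits of C1q, and then Csf1r at 21.1 FPKM. In all, 12 genes had a mean of 10 FPKM or more, 23 lay between 1 and 10 FPKM, 8 between 0.1 and 1 FPKM, and 2 below 0.1 FPKM. The 4 lowest were all secreted signals. Tnf, encoding tumor necrosis factor, had a mean of 0.0226 FPKM, Ccl2, a monocyte chemokine, 0.0826 FPKM, Ccl4 0.114 FPKM and Il1b, encoding interleukin-1 beta, 0.156 FPKM. With about 0.619 fragments of Tnf and 3.53 of Il1b expected per mouse, differences in these cytokines were not resolvable at this depth unless large.

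**Figure D1:**
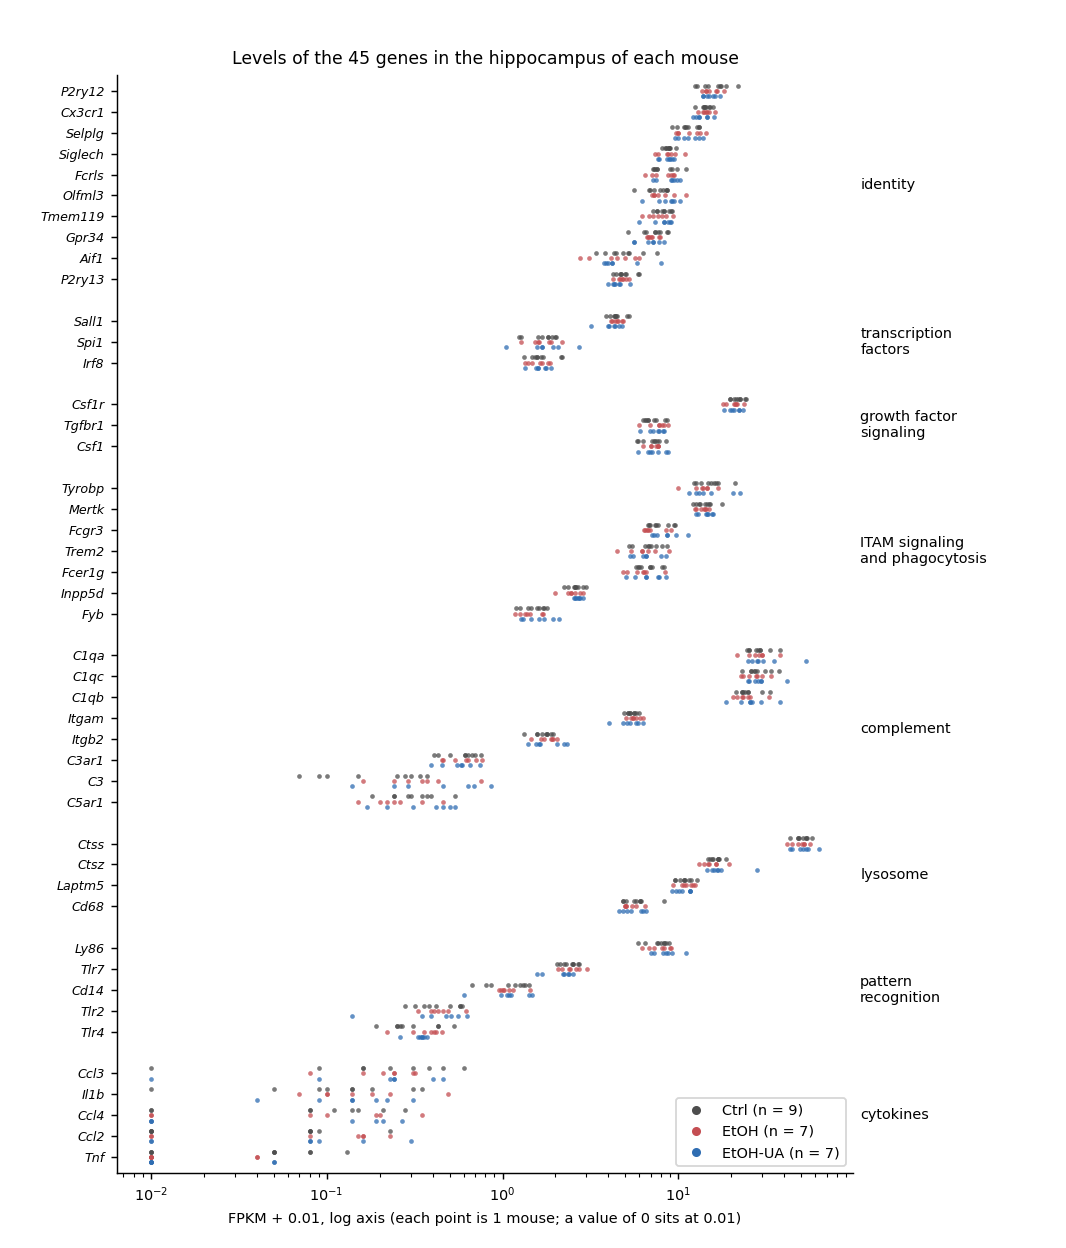
FPKM of the 45 genes in each of the 23 mice, on a log axis after adding 0.01, grouped by role, with one colored row of points per group. The groups overlap for every gene, from Ctss near 50 FPKM down to Tnf, which was 0 in 3 of 9 Ctrl, 5 of 7 EtOH and 5 of 7 EtOH-UA mice.

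Markers of microglia and of the hippocampus were present. The purinergic receptor P2ry12 had a mean of 16.2 FPKM in Ctrl mice, Tmem119 8.22 FPKM and Sall1 4.46 FPKM. Over all mice P2ry12 lay above 69.2% of the genes tested, Tmem119 above 51.3% and Sall1 above 38.4%. Defining markers of border macrophages were low but present, with Mrc1 at 0.62 FPKM and Cd163 at 0.566 FPKM in Ctrl mice, and the most abundant gene of that list was the transcription factor Maf at 4.06 FPKM. Of 16 blood leukocyte markers, 10 had a mean below 0.1 FPKM over all mice. The neutrophil genes S100a8 and S100a9 had 0.978 and 1.15 FPKM in Ctrl mice. The hippocampal genes Prox1, of dentate granule cells, Neurod6 and Wfs1 averaged 15.2, 106 and 27.4 FPKM in Ctrl mice. Zbtb20, another hippocampal marker, was low, with a mean of 2.26 FPKM in Ctrl mice (0.55 to 7.2). In bulk tissue fewer cells of a type and less RNA per cell cannot be told apart, for these genes or any other named below.

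Promoters of 32 of the 45 genes were present in the RefSeq table used (build GRCm38.p6, 250 bases before to 50 after the start site). The 3 shown belong to 2 C1q subunits, whose levels moved together between mice, and to the most abundant gene. Capitals mark GAGGAAGT or its reverse complement, a sequence bound by PU.1, the product of Spi1. The C1qb promoter spans chr4:136886151-136886450 on the minus strand, that of C1qc chr4:136892865-136893164 on the minus strand, and that of Ctss chr3:95526536-95526835 on the plus strand.
C1qb: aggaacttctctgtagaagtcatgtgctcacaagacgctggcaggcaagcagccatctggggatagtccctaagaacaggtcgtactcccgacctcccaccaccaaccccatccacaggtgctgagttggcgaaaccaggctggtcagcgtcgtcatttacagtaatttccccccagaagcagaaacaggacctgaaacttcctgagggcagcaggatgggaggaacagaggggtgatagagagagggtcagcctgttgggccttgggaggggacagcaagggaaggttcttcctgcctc
C1qc: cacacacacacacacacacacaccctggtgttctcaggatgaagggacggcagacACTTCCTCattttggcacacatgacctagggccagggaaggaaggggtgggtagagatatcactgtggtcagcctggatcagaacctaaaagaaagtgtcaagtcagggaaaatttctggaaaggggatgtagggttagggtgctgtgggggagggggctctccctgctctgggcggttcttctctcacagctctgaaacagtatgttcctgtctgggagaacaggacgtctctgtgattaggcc
Ctss: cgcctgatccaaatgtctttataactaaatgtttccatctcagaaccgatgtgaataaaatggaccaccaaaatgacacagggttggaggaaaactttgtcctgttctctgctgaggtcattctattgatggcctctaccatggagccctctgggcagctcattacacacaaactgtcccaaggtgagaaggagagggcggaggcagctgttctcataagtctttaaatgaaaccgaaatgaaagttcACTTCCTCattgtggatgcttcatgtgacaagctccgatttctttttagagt
The match began at position -195 from the start site in C1qc and at -2 in Ctss, and C1qb held none of these letters in its window. Among the 32 promoters 3 had the motif on either strand (9.38%), those of C1qc, Ctss and Inpp5d, against 3.69% of 27025 promoters. The interferon response element GAANNGAAA was found in 5 of 32 (15.6%, against 8.68%), in Cd68, Ctss, Ly86, Fyb and Tlr2. AP-1 (TGACTCA) was found in 2 (6.25%, against 5.95%) and NF-kB (GGGANTTTC) in 1, Csf1 (3.12%, against 1.29%). These matches are descriptions of the sequence only. The 3 C1q genes lie next to each other on chromosome 4, C1qb at 136880126 to 136886200, C1qc at 136889801 to 136892936 and C1qa at 136895916 to 136898844.

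Chronic alcohol intake was followed by no change in these genes that passed the test. Between EtOH and Ctrl mice, 0 of the 43 genes that passed the filter of a mean of 0.1 FPKM were called by limma at an adjusted p under 0.05, as were 0% of all 15985 genes tested. At an unadjusted p under 0.05 it was 0 of 43, against 3.05% of all genes (1.95% higher and 1.1% lower). Their median log2 fold change was -0.02, with 20 higher and 23 lower, against a median of 0.00 over all genes. The 20 higher genes (46.5%) became 15 (34.9%) under quantile normalization or array quality weights and 25 (58.1%) with the ependymal score described below as a covariate. All but 1 gene, C3, lay within 0.25 of 0 on the log2 scale, and for 37 of 43 the 95% confidence interval lay within 0.5 of 0.

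The addition of urolithin A was likewise followed by no called change. Between EtOH-UA and EtOH mice 0 of 43 genes passed the adjusted threshold (0% of all genes), while 2 passed the unadjusted one, Fcgr3 higher and Tlr7 lower, or 4.65% against 3.27% of all genes (1.83% higher and 1.45% lower). The median log2 fold change was 0.04, with 25 higher and 18 lower, and the smallest adjusted p in limma was 0.90. This balance turned over with the length slope as a covariate and without the 2 EtOH-UA libraries of lowest slope, each of which left 17 of 43 higher (39.5%). Between EtOH-UA and Ctrl mice 0 of 43 were called (0% of all genes) and 1, C3, passed the unadjusted threshold, 2.33% against 3.08% of all genes (1.56% higher and 1.52% lower), with a median of 0.00. Here 22 of 43 were higher, or 17 with the slope as a covariate and 14 without the 2 libraries. In none of the 3 comparisons did the groups fail to overlap for any of the 43 genes, against 0.00626%, 0.025% and 0.0125% of all genes for EtOH and Ctrl, EtOH-UA and EtOH, and EtOH-UA and Ctrl. The log2 fold changes are on the log2(FPKM + 0.1) scale, which understates changes of the lowest genes.

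**Figure D2:**
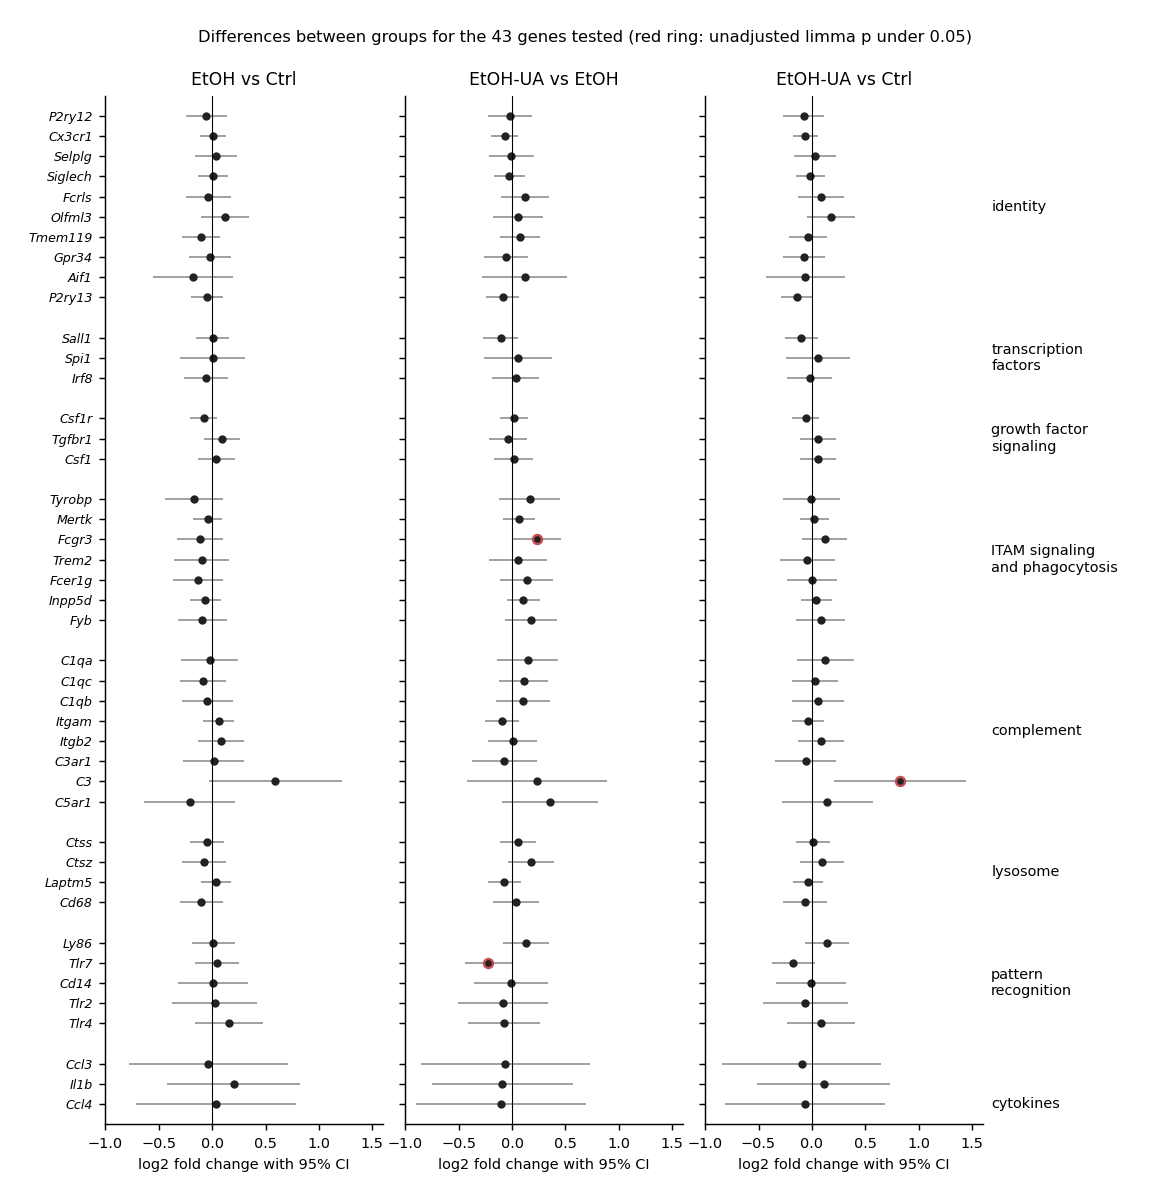
Log2 fold changes (points) with 95% confidence intervals (lines) of the 43 genes tested, by role, in 3 comparisons, with red rings at an unadjusted limma p under 0.05. The points lie within 0.25 of 0 for 42 of 43 genes in each comparison, the exceptions being C3 against Ctrl and C5ar1 for EtOH-UA over EtOH, and the rings mark Fcgr3, Tlr7 and C3.

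Aif1, encoding IBA-1, a calcium-binding protein used to stain microglia, was also measured in the study by qRT-PCR, as were Fyb, Il1b and Tnf. By that assay the paper reports that alcohol raised the hippocampal mRNA of these genes and that urolithin A restored it. FPKM is a different measure, and the difference between the assays was not tested. In Ctrl mice Aif1 ran from 3.37 to 7.58 FPKM with a median of 4.82, in EtOH mice from 2.74 to 5.96 with a median of 4.44, and among EtOH-UA mice from 3.74 to 7.99 with a median of 4.17. The ranges of the groups overlapped almost entirely. Its log2 fold change was -0.18 ± 0.18 (SE) for EtOH over Ctrl, which corresponds to a fold between 0.683 and 1.14 (95% CI; exact permutation p = 0.393, n = 7 and 9). Between EtOH-UA and EtOH it was 0.12 ± 0.19 (exact permutation p = 0.625), and -0.09 with the length slope as a covariate.

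Fyb, an adaptor protein of immune cell signaling also called ADAP, had medians of 1.55 FPKM in Ctrl (1.18 to 1.78), 1.37 in EtOH (1.16 to 1.68) and 1.61 among EtOH-UA mice (1.27 to 2.09). The highest value was that of an EtOH-UA mouse, while 2 of 7 lay below the EtOH median. The log2 fold change was -0.09 ± 0.11 for EtOH over Ctrl and 0.18 ± 0.12 for EtOH-UA over EtOH (exact permutation p = 0.341 and 0.17). Without the 2 EtOH-UA libraries of lowest length slope the latter was 0.26, with an unadjusted limma p of 0.0483 and an adjusted p of 0.999.

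The cytokines were near the limit of detection. Il1b had a median of 0.13 FPKM in each group and ran from 0 to 0.34 in Ctrl, from 0.06 to 0.48 in EtOH and from 0.03 to 0.3 among EtOH-UA mice. The highest value came from 1 EtOH mouse, and the interval of the EtOH to Ctrl fold, 0.748 to 1.77, was wide (exact permutation p = 0.617). Tnf was above 0 in 6 of 9 Ctrl mice and in 2 of 7 mice of each alcohol-fed group, with a highest value of 0.12 FPKM in Ctrl, 0.03 in EtOH and 0.04 among EtOH-UA mice. Its means were 0.0422, 0.00857 and 0.0114 FPKM in Ctrl, EtOH and EtOH-UA mice, and the difference did not pass the test (exact permutation p = 0.0545 for EtOH and 0.106 for EtOH-UA, each against Ctrl). In the limma fit without a filter on low values its unadjusted p was 0.0262 and 0.0407 in these comparisons, with an adjusted p of 1 in both. Ccl2, which recruits monocytes, was above 0 in 5 mice of each group. The microglial chemokine Ccl3 had medians of 0.22, 0.23 and 0.23 FPKM and Ccl4 of 0.1, 0.09 and 0.13 FPKM in Ctrl, EtOH and EtOH-UA mice, with intervals of the log2 fold change that reached beyond 0.5 in both directions in every comparison.

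**Figure D3:**
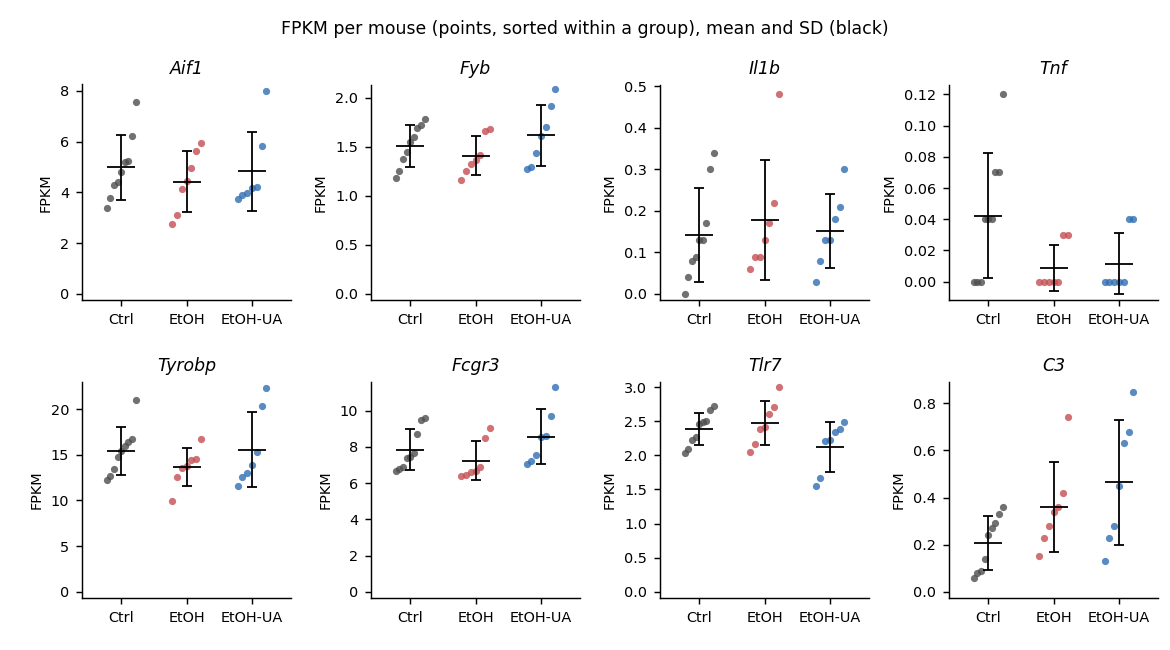
FPKM per mouse (points) with the mean and SD (black bars) for 8 genes in Ctrl (n = 9), EtOH (n = 7) and EtOH-UA mice (n = 7), with a separate FPKM axis for each gene. The groups overlap in every panel; Tnf sits at 0 in 13 of 23 mice, and the 2 lowest Tlr7 values are EtOH-UA mice.

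The 7 genes of ITAM signaling and phagocytosis carry signals from surface receptors that recognise lipids, antibodies and dying cells. Between EtOH and Ctrl mice 0 of 7 were higher, against 48.6% of all genes, with a median log2 fold change of -0.10. For EtOH-UA over EtOH 7 of 7 were higher, against 51.2% of all genes, with a median of 0.14. Both comparisons use the same 7 EtOH mice, so the counts are not independent of each other. Only Fcgr3 in the second comparison passed the unadjusted threshold. Without the 2 EtOH-UA libraries of lowest length slope 5 of 7 were higher for EtOH-UA over EtOH, with a median of 0.10. With the ependymal score as a covariate, 2 of 7 were higher in EtOH than in Ctrl mice. Within groups, Tyrobp, Trem2, Fcgr3 and Fcer1g had r between -0.82 and -0.59 with the length slope. For Inpp5d, Fyb and Mertk it lay between -0.25 and 0.30. With the slope as a covariate, EtOH-UA over EtOH was 0.01 for Tyrobp, 0.13 for Fcgr3 and 0.21 for Fyb, against 0.16, 0.24 and 0.18 without it.

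Fcgr3, a low-affinity receptor for immunoglobulin G, ran from 6.7 to 9.58 FPKM in Ctrl (median 7.43), from 6.39 to 9.07 in EtOH (median 6.7) and from 7.07 to 11.32 among EtOH-UA mice (median 8.57). All 7 EtOH-UA mice lay above the EtOH median, although 2 EtOH mice reached into their range. The log2 fold change was 0.24 ± 0.11 with a fold between 1.01 and 1.38 (unadjusted limma p = 0.0417, adjusted p = 0.90; exact permutation p = 0.0804). It was 0.13 with the length slope as a covariate, at an unadjusted limma p of 0.115, and 0.15 without the 2 EtOH-UA libraries. Fcgr3 is part of a family of similar receptor genes whose reads can be shared, and its level is uncertain to that extent.

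Tyrobp, the adaptor DAP12 that passes on signals of Trem2, had medians of 15.4 FPKM in Ctrl (12.21 to 20.94), 13.73 in EtOH (9.88 to 16.71) and 13.85 among EtOH-UA mice (11.54 to 22.31). It had the smallest p of the ITAM genes for EtOH over Ctrl (log2 fold change -0.17 ± 0.13, exact permutation p = 0.187), with 6 of 7 EtOH mice below the Ctrl median. With the ependymal score as a covariate the value was -0.00, and with the length slope -0.09. Trem2, a lipid receptor, had a log2 fold change of -0.10 in that comparison and 0.05 for EtOH-UA over EtOH. The other genes of the group had, for the latter comparison, 0.14 for Fcer1g, the Fc receptor gamma chain, 0.11 for Inpp5d, an inhibitory lipid phosphatase, and 0.07 for Mertk, a receptor that engulfs apoptotic cells.

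Among the 8 complement genes, 4 were higher for EtOH over Ctrl and 6 for EtOH-UA over EtOH, with medians of -0.00 and 0.10 (log2). With the length slope as a covariate the latter count was 2 of 8. The 3 subunits of C1q did not pass any test. C1qa had medians of 28.21 FPKM in Ctrl (24.49 to 37.86), 28.81 in EtOH (21.37 to 37.57) and 28.38 among EtOH-UA mice (24.74 to 53.07). The medians were nearly equal, and the EtOH-UA maximum came from the library with the lowest length slope. C1qb ran from 21.15 to 33.13 FPKM in Ctrl (median 23.83), from 20.45 to 32.82 in EtOH (median 23.24) and from 18.56 to 37.79 among EtOH-UA mice (median 25.61). C1qc ran from 22.97 to 37.32 (median 27.3), from 22.77 to 33.64 (median 27.54) and from 24.9 to 41.48 FPKM (median 28.27) in the same order. For these subunits the log2 fold change was between -0.08 and -0.02 for EtOH against Ctrl and between 0.10 and 0.15 for EtOH-UA against EtOH. With the length slope as a covariate the latter values were -0.01 for C1qa, -0.02 for C1qb and -0.00 for C1qc. For C1qa the 95% interval of the EtOH to Ctrl fold was 0.818 to 1.19.

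C3, the central complement protein, had the largest log2 fold change of the 43 genes against Ctrl mice, in both alcohol-fed groups. It ran from 0.06 to 0.36 FPKM in Ctrl (median 0.24), from 0.15 to 0.74 in EtOH (median 0.34) and from 0.13 to 0.85 among EtOH-UA mice (median 0.45). The ranges overlapped, with 2 of 7 EtOH-UA mice below the Ctrl median. The log2 fold change was 0.59 ± 0.30 for EtOH over Ctrl (unadjusted limma p = 0.0605; exact permutation p = 0.0552) and 0.83 ± 0.30 for EtOH-UA over Ctrl (unadjusted limma p = 0.0113, adjusted p = 0.999; exact permutation p = 0.0198). Neither passed the adjusted threshold, and the exact values are not adjusted for the number of genes. For EtOH-UA over EtOH it was 0.23 ± 0.32, or 0.58 without the 2 EtOH-UA libraries of lowest length slope, which had 0.13 and 0.23 FPKM of C3, the lowest of their group.

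Within groups, C3 moved with the level of 4 ependymal genes and with the length slope. Choroid plexus and ependyma line the brain ventricles. Of their markers 12 of 12 were higher in EtOH than in Ctrl mice, against 48.6% of all genes, with a median log2 fold change of 1.50. At an unadjusted limma p under 0.05, 6 were higher, against 1.95% of all genes, and 0 passed the adjusted threshold. Markers of the same cells can move together, so they are not independent observations. Ttr, the most abundant of them, had a median of 56.1 FPKM in Ctrl mice (3.88 to 2913.56). Its median was 1248.73 FPKM in EtOH (58.36 to 5628.27) and 1810.57 FPKM among EtOH-UA mice (11.34 to 7704.77). The ranges overlapped widely. By log2 fold change 12 of 12 markers were higher for EtOH-UA over Ctrl, with a median of 1.035. For EtOH-UA over EtOH 0 of 12 were higher, with a median of -0.43, and C3 had 0.23 ± 0.32 in that comparison. The summed FPKM of 4 ependymal genes, Foxj1, Ccdc153, Tmem212 and Rsph1, ran from 3.65 to 12.21 in Ctrl (median 6.62), from 8.94 to 19.19 in EtOH (median 11.55) and from 3.38 to 18.86 among EtOH-UA mice (median 11.78). Within groups, C3 correlated with the mean log2 level of these genes, the ependymal score, at r = 0.72 (Spearman rho = 0.67, n = 23; permutation p = 5e-05 and 0.0006, or 7.5e-05 and 0.0009 adjusted over 9 relations), or r = 0.62 without the 2 mice farthest from the median. With the score as a covariate the log2 fold change of C3 was -0.05 for EtOH over Ctrl (adjusted p = 1 in limma) and 0.41 for EtOH-UA over Ctrl (adjusted p = 0.614 in limma). Without the 2 EtOH-UA libraries of lowest length slope the latter was 1.18 (adjusted p = 0.734 in limma). The length slope as a covariate gave C3 0.45 for EtOH over Ctrl, 0.95 for EtOH-UA over Ctrl and 0.50 for EtOH-UA over EtOH. Without a covariate these values were 0.59, 0.83 and 0.23. For EtOH-UA over EtOH the ependymal score as a covariate gave 0.46. C3 did not pass the adjusted threshold in any of these fits. C3 also had r = 0.65 with the length slope (Spearman rho = 0.66), and no fit held the score and the slope together. The EtOH-UA library with a slope of -0.16 had the lowest ependymal sum of its group, 3.38 FPKM. The one with a slope of -0.27 had 13.22 FPKM. The part of ventricular cells or of the slope in the C3 values was not tested.

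**Figure D4:**
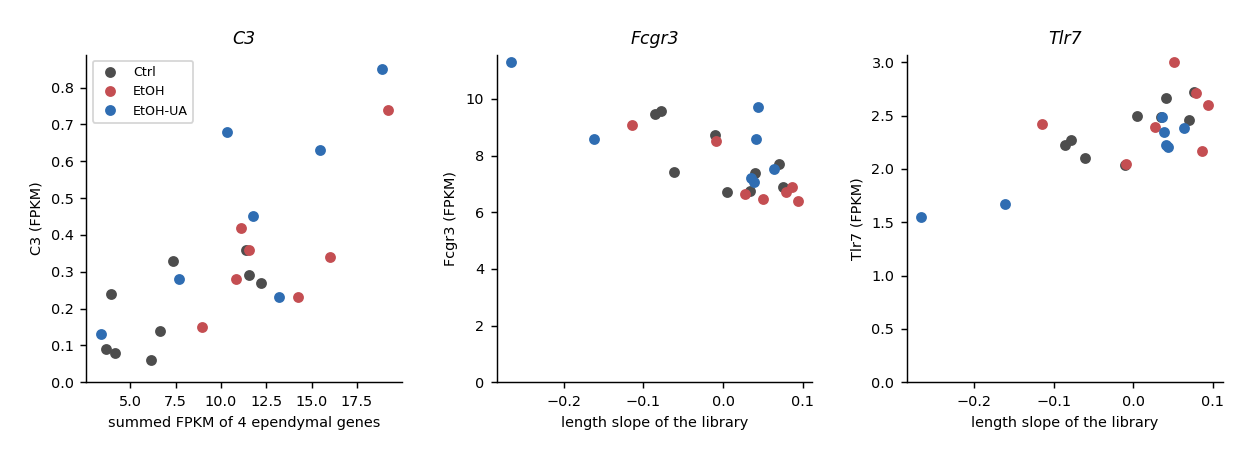
C3 against the summed FPKM of 4 ependymal genes, and Fcgr3 and Tlr7 against the length slope of the library, 1 point per mouse, colored by group. C3 tends to be higher where the ependymal genes are high, with exceptions. Its r of 0.72 is with the ependymal score, on log2 deviations from group means and not on the plotted FPKM. The 2 EtOH-UA libraries with slopes of -0.27 and -0.16 hold the 2 lowest Tlr7 values.

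No complement receptor passed a test. C3ar1, the receptor of the C3a fragment, had medians of 0.6, 0.61 and 0.57 FPKM in Ctrl, EtOH and EtOH-UA mice. C5ar1, the receptor of C5a, had medians of 0.29, 0.23 and 0.41 FPKM, with a log2 fold change of 0.35 ± 0.22 for EtOH-UA over EtOH (exact permutation p = 0.147). Itgam and Itgb2 form complement receptor 3, and their log2 fold changes lay between -0.10 and 0.08 in all 3 comparisons.

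None of the 4 lysosomal genes passed a test. Ctss ran from 43.27 to 57.13 FPKM in Ctrl (median 51.36), from 41.14 to 56.22 in EtOH (median 50.55) and from 42.86 to 63.23 among EtOH-UA mice (median 51.24). The interval of its EtOH to Ctrl fold was 0.869 to 1.08. Ctsz, the protease cathepsin Z, ran from 14.66 to 18.57 (median 16.67), from 13.09 to 19.38 (median 14.92) and from 14.44 to 27.91 FPKM (median 16.61), and the EtOH-UA maximum stood far from the other 6 mice of its group. Its log2 fold change for EtOH-UA over EtOH was 0.18 ± 0.11 (unadjusted limma p = 0.107; exact permutation p = 0.261). It was 0.08 with the length slope as a covariate, 0.08 without the 2 EtOH-UA libraries of lowest slope and 0.07 without the one that held the maximum. Cd68, a lysosomal membrane glycoprotein, and Laptm5, a lysosomal transmembrane protein, had log2 fold changes between -0.10 and 0.04.

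Of the pattern recognition genes Tlr7, the endosomal receptor of single-stranded RNA, was lower among EtOH-UA than among EtOH mice before adjustment. Of these 5 genes, 5 were higher for EtOH over Ctrl and 1 for EtOH-UA over EtOH, with medians of 0.02 and -0.08 (log2). The former count was 2 of 5 with the ependymal score as a covariate or with array quality weights and 3 of 5 with the length slope or quantile normalization, and the latter was 3 of 5 with the length slope. Tlr7 ran from 2.04 to 2.72 FPKM in Ctrl (median 2.46), from 2.05 to 3 in EtOH (median 2.42) and from 1.55 to 2.49 among EtOH-UA mice (median 2.22). Only the 2 EtOH-UA libraries of lowest length slope, at 1.55 and 1.67 FPKM, lay below the range of the other groups. The log2 fold change was -0.22 ± 0.10 (unadjusted limma p = 0.0459, adjusted p = 0.90; exact permutation p = 0.0857), -0.13 with the length slope as a covariate and -0.08 without these 2 libraries. Tlr4, the receptor of bacterial lipopolysaccharide, had a log2 fold change of 0.16 ± 0.15 for EtOH over Ctrl, its co-receptor Cd14 0.01 and Tlr2, the receptor of bacterial lipopeptides, 0.03. Ly86, which pairs with Cd180, a relative of Tlr4, had 0.13 ± 0.10 for EtOH-UA over EtOH.

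None of the genes of microglial identity passed a test, and 4 of 10 were higher for EtOH over Ctrl, or 8 of 10 with the ependymal score as a covariate. Cx3cr1, the receptor of the neuronal chemokine fractalkine, had medians of 14.11, 14.26 and 13.11 FPKM in Ctrl, EtOH and EtOH-UA mice, and P2ry12 of 16.86, 14.89 and 14.84 FPKM. P2ry13, a related ADP receptor, had the smallest p of the identity genes for EtOH-UA over Ctrl, with medians of 4.7, 4.77 and 4.32 FPKM (log2 fold change -0.14 ± 0.07, exact permutation p = 0.107), and 6 of 7 EtOH-UA mice lay below the Ctrl median. Tmem119, a surface protein of microglia, had a log2 fold change of -0.11 ± 0.09 for EtOH over Ctrl, and Gpr34, Siglech, Selplg, Fcrls and Olfml3 lay between -0.04 and 0.12. The transcription factors Sall1, Spi1 and Irf8 were at means of 4.37, 1.73 and 1.63 FPKM, with log2 fold changes between -0.10 and 0.06 in all comparisons.

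Csf1r, on which microglia depend for survival, had medians of 21.74 FPKM in Ctrl (19.59 to 24.19), 20.84 in EtOH (17.95 to 23.55) and 20.65 among EtOH-UA mice (18.25 to 23.17). In 6 of 7 EtOH mice it was below the Ctrl median, with a log2 fold change of -0.08 ± 0.06 and a fold between 0.869 and 1.03 (exact permutation p = 0.21). Its ligand Csf1 had 0.04 ± 0.08 in that comparison, and Tgfbr1, a receptor of the TGF-beta signal that maintains microglia, 0.09 ± 0.08.

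Across mice, part of the list moved together. Over the 903 pairs of the 43 genes the median Pearson r of deviations from group means was 0.21, against 0.00 over all pairs of tested genes, and 23.4% of pairs exceeded 0.5, against 9.75%. C1qa and C1qc correlated at r = 0.90 (Spearman rho = 0.84), C1qa and C1qb at r = 0.87 (rho = 0.85) and C1qb and C1qc at r = 0.87 (rho = 0.82), each with a permutation p of 1e-05, the smallest that 100000 permutations can give, or 2e-05 after adjustment over 7 pairs. The rho values had adjusted permutation p-values of 3.5e-05 to 4.67e-05. Without the 2 mice farthest from the median of the first gene these values of r were 0.80, 0.77 and 0.83. Trem2 and its adaptor Tyrobp correlated at r = 0.79 (rho = 0.77, adjusted permutation p = 2e-05 and 8.75e-05), or 0.73 without 2 mice. The other 3 pairs did not pass: Itgam and Itgb2 at r = -0.28 (rho = -0.09), Csf1 and Csf1r at r = 0.30 (rho = 0.38) and Ccl3 and Ccl4 at r = -0.05 (rho = -0.12), with permutation p of 0.201, 0.16 and 0.835 for r (adjusted 0.234, 0.224 and 0.835) and 0.681, 0.079 and 0.579 for rho.

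This covariation was shared with the length slope of the libraries. Of the 43 genes 16 (37.2%) had r below -0.5 with the slope, against 25.6% of all genes, and 6 had r above 0.5, against 21.0% of all genes. The former included 13 of the 17 genes whose longest transcript was under 2000 bases and 3 of the 26 longer ones. C1qa had r = -0.88, Aif1 and Tyrobp -0.82 each, C1qb and C1qc -0.77 each and Fcgr3 -0.72, while Tlr7 had 0.76, Tgfbr1 0.72 and C3 0.65. With the slope removed, r was 0.64 to 0.72 for the 3 C1q pairs and 0.45 for Trem2 and Tyrobp. These relations to the slope were looked for after the values were seen and are given as descriptions.

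**Figure D5:**
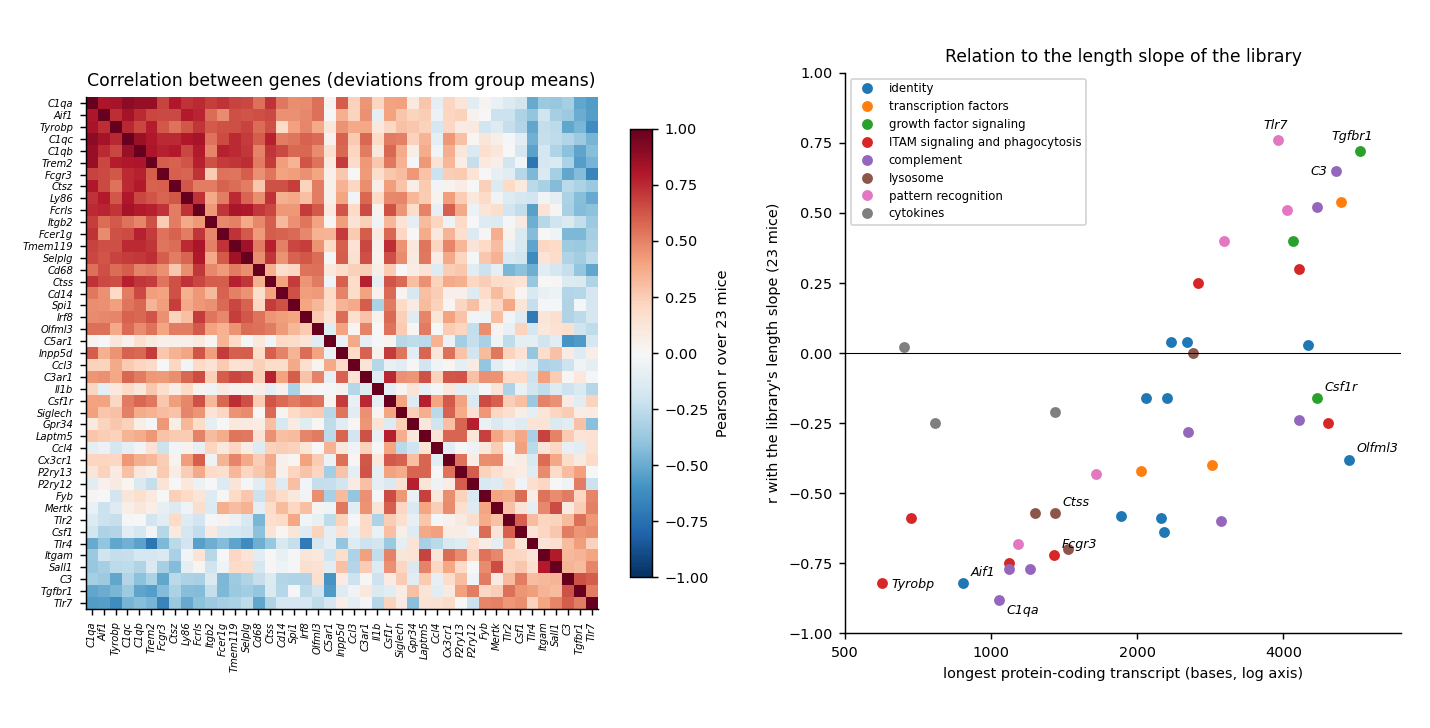
Left, Pearson r over 23 mice between the 43 genes (deviations from group means; red positive, blue negative), ordered by their r with the length slope of the library. Right, that r against the longest protein-coding transcript of each gene on a log axis, colored by role; short transcripts such as C1qa (-0.88) lie low and long ones such as Tlr7 (0.76) high.

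Related genes outside the list were counted in the same fit, in which 1.95% of all genes were higher and 1.1% lower at an unadjusted p under 0.05 for EtOH over Ctrl, 1.83% and 1.45% for EtOH-UA over EtOH, and 1.56% and 1.52% for EtOH-UA over Ctrl. Of 25 other microglia genes tested, 2 were lower and 0 higher at an unadjusted limma p under 0.05 for EtOH over Ctrl, and the median log2 fold change was 0.01. Hk2, a hexokinase, had the smallest p there (medians 1.7 and 1.53 FPKM, log2 fold change -0.29 ± 0.11, adjusted p = 0.999 in limma). Cd33, an inhibitory sialic acid receptor, had medians of 2.48, 2.52 and 1.94 FPKM in Ctrl, EtOH and EtOH-UA mice (log2 fold change of EtOH-UA against EtOH -0.31 ± 0.13, adjusted p = 0.90 in limma). Of 19 disease-associated microglia genes 1 was higher for EtOH over Ctrl and 0 lower. This was Lgals3, encoding galectin-3, with medians of 0.3, 0.63 and 0.59 FPKM (log2 fold change 0.78 ± 0.35, adjusted p = 0.999 in limma), and Gpnmb had the smallest p for EtOH-UA over EtOH (0.22 ± 0.12, adjusted p = 0.90 in limma). For EtOH-UA over Ctrl, 2 of the 25 other microglia genes were lower and 1 higher at that threshold. Cd33 had the smallest p (-0.34 ± 0.12, adjusted p = 0.999 in limma). Of the 19 disease-associated genes 1 was higher and 0 lower, Lgals3 (0.87 ± 0.35, adjusted p = 0.999 in limma). None of these passed adjustment over all genes.

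Among 14 other cytokine and chemokine genes tested, Il18, an inflammasome cytokine, had the smallest p in both comparisons with EtOH mice. It ran from 13.41 to 19.06 FPKM in Ctrl (median 17.34), from 11.57 to 15.76 in EtOH (median 14.87) and from 14.22 to 19.56 among EtOH-UA mice (median 17.07). The highest EtOH value lay below the median of each other group, and the ranges overlapped. The log2 fold change was -0.20 ± 0.08 for EtOH over Ctrl (adjusted p = 0.999 in limma) and 0.23 ± 0.08 for EtOH-UA over EtOH (adjusted p = 0.90 in limma), and these comparisons share the EtOH mice. Of 18 other complement genes 0 passed the unadjusted threshold for EtOH over Ctrl or for EtOH-UA over EtOH; the smallest p were those of Cd59a (0.53 ± 0.30, adjusted p = 0.999 in limma) and C7 (-0.46 ± 0.24, adjusted p = 0.90 in limma). Between EtOH-UA and Ctrl 1 was lower, C7, a protein of the membrane attack complex (-0.72 ± 0.23, adjusted p = 0.999 in limma). Of 30 genes of cytokine receptor and toll-like signaling, 1 was lower and 0 higher for EtOH over Ctrl (Tlr13, -0.25 ± 0.11). For EtOH-UA over EtOH 2 were higher and 1 lower (Irak4 with the smallest p, -0.31 ± 0.13). For EtOH-UA over Ctrl 1 was lower and 0 higher (Tlr9, -0.32 ± 0.13). In that comparison 0 of the 14 cytokine and chemokine genes passed the unadjusted threshold, and Ccl5 had the smallest p (-0.765 ± 0.434). None of these passed the adjusted threshold.

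Of 12 border macrophage markers 0 passed the unadjusted threshold in any comparison, with 7 higher for EtOH over Ctrl and 10 for EtOH-UA over EtOH, and their summed FPKM ran from 6.93 to 13.7 in Ctrl, from 8 to 10.9 in EtOH and from 8.19 to 12.1 among EtOH-UA mice. The summed blood leukocyte markers had medians of 3.56, 3.39 and 2.21 FPKM. Neuron and oligodendrocyte markers, led by Snap25 and Mbp, held 0 genes at the unadjusted threshold in any comparison. Of 10 astrocyte markers, led by Slc1a2, 0 passed it for EtOH over Ctrl, 1 was higher for EtOH-UA over EtOH (Gjb6, 0.25 ± 0.10) and 1 for EtOH-UA over Ctrl (Gfap, 0.23 ± 0.08). Of 12 endothelial and mural markers, led by Vtn, 10 were higher for EtOH-UA over EtOH, 2 of them at the unadjusted threshold, and of 5 erythroid markers, led by Hbb-bs, 5 were higher for EtOH-UA over Ctrl, 4 of them at that threshold. The part of these cell types in the values of the 45 genes was not tested.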

How the data were processed

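Hippocampal RNA of 23 mice (9 Ctrl, 7 EtOH and 7 EtOH-UA) was sequenced, and the labels describe each library as a separate mouse. The authors deposited 1 table of FPKM values for 19733 genes, rounded to 2 decimals, made with RSEM 1.2.8 and Bowtie2 2.2.5. The submitters' processing notes also name HISAT2 2.1.0, StringTie and DESeq. No counts were used, so depth is known only from the low FPKM steps (66 of 631 genes, tolerance 0.0055 FPKM).

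The 15985 genes whose mean reached 0.1 FPKM were fitted on log2(FPKM + 0.1) with limma 3.58.1 (R 4.3.3), with an intensity trend, all 3 groups in 1 fit and Benjamini-Hochberg adjustment over all genes. The script was tested on simulated data. For single genes, mean FPKM was tested by exact permutation (two-sided), and pairs by permutation of deviations from group means (numpy 2.4.6, scipy 1.17.1). The length slope used GENCODE transcript lengths of genes at 1 FPKM or more. It, the ependymal score and the exclusion of 2 libraries were chosen after seeing the data.

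The 45 genes and all lists were chosen with earlier results of these data known. Genes given in full were those measured by qRT-PCR, the C1q subunits, the 3 most abundant, and in each comparison those with an unadjusted p under 0.05, or the 3 with the smallest p. Outside the list, each pathway list gave its gene of smallest p, and marker lists their most abundant gene. Gjb6, Gfap and the defining markers P2ry12, Mrc1, Cd163, S100a9, Prox1, Neurod6, Wfs1 and Zbtb20 were also given.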

Additional observations from a re-analysis of the deposited data

Results flagged for a closer look

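In 45 sets of values, 1 per gene and group tested, compared on the log2(FPKM + 0.1) scale, 2 held a mouse that stood far from the others of its group, where about 2.25 are expected by chance at 1 in 20. For C1qc the highest EtOH-UA mouse had 41.48 FPKM, the next 29.58 and the lowest 24.9, and on the log2 scale the gap to the next mouse was 0.663 of the range of the group (critical value 0.568). For Ctsz the highest EtOH-UA mouse had 27.91 FPKM, the next 17.53 and the lowest 14.44, with a gap of 0.706 of the range on the log2 scale. Both values came from the same library, the one with the highest summed FPKM (404609) and the lowest length slope (-0.27). On the FPKM scale, tried after seeing the data, 5 sets held such a mouse. The gaps were 0.718 for C1qc, 0.771 for Ctsz and 0.636 for C1qa among EtOH-UA mice, all from that library, and 0.619 for Il1b and 0.603 for C1qb among EtOH mice.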

How the results depend on the processing

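No paired analysis was possible because the columns of the table carry mouse numbers and no replicate numbers. The replicate block was therefore not run. No gene of the list was called at an adjusted p under 0.05 under any of 12 alternatives or with any of the 23 mice left out, and the smallest adjusted p of a named gene was 0.548. Over all genes the count was 1 for EtOH over Ctrl with array quality weights (Cd24a) and 1 for EtOH-UA over Ctrl with the ependymal covariate (LOC101055676), and ran from 0 to 1 in each comparison with 1 mouse left out. The calls came without 1 Ctrl mouse (LOC115488002) or without either of 2 EtOH-UA mice (LOC101055676). Under quantile normalization or array quality weights 15 of 43 genes (34.9%) were higher for EtOH over Ctrl, against 46.5%, and for EtOH-UA over EtOH 17 (39.5%) with the length slope or without the 2 libraries, against 58.1%.

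Of 1464 values for 42 gene and comparison pairs, 1393 kept their direction and 71 in 24 pairs changed it. The cause was not tested. The log2 values that changed sign were the following. With array quality weights, EtOH-UA over EtOH gave Aif1 -0.027, and EtOH-UA over Ctrl gave C1qa -0.042, C1qb -0.062, C1qc -0.052, Ctss -0.046 and Ctsz -0.003. With quantile normalization, EtOH-UA over Ctrl gave Ctss -0.003. With the ependymal covariate, EtOH over Ctrl gave Aif1 0.011, C1qa 0.089, C1qb 0.068, C1qc 0.016, C3 -0.048, Fcgr3 0.006 and Tlr7 -0.082, and EtOH-UA over Ctrl gave Aif1 0.063, Fyb -0.005 and Tyrobp 0.104. With the length slope covariate, EtOH over Ctrl gave C1qa 0.062, C1qb 0.02 and Tlr7 -0.002, EtOH-UA over EtOH gave Aif1 -0.091, C1qa -0.012, C1qb -0.024, C1qc -0.004 and Ctss -0.001, and EtOH-UA over Ctrl gave C1qb -0.004, C1qc -0.027 and Ctss -0.018. Without the 2 EtOH-UA libraries of lowest length slope, EtOH-UA over EtOH gave Aif1 -0.1, C1qa -0.038, C1qb -0.008, Ctss -0.018 and Tyrobp -0.032, and EtOH-UA over Ctrl gave Il1b -0.011, C1qa -0.061, C1qb -0.054, C1qc -0.069, Ctss -0.065 and Ctsz -0.004. The correlation of Itgam and Itgb2 was 0.05 with the length slope removed.

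With 1 mouse left out, EtOH over Ctrl ran from -0.091 to 0.044 for C1qa and from -0.119 to 0.005 for C1qb. EtOH-UA over EtOH ran from -0.01 to 0.196 for Aif1, from -0.013 to 0.052 for Csf1r and from -0.215 to 0.109 for Il1b. EtOH-UA over Ctrl ran from -0.189 to 0.018 for Aif1, from -0.002 to 0.181 for C1qa, from -0.034 to 0.136 for C1qb, from -0.059 to 0.075 for C1qc, from -0.043 to 0.051 for Ctss, from -0.015 to 0.143 for Ctsz, from -0.03 to 0.258 for Il1b and from -0.097 to 0.06 for Tyrobp. Depth limits the cytokines most, with about 0.619 fragments of Tnf, 1.12 of Ccl2 and 3.53 of Il1b per mouse.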
